A study of Punica granatum with 4 samples.

Results

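The genes described here were those whose transcripts stood high in the leaf library of pomegranate plants sprayed with 60 µM abscisic acid (ABA) and lay at a near-level abundance in the other 3 libraries of the study. Members were chosen from their measured values. A gene was taken when its mean over the 4 libraries was at least 2 CPM (a count scaled to its library total), its value at 60 µM was at least 2 times the highest of the 0, 30 and 90 µM values, and the highest of those 3 was under about 1.7 times the lowest (the levelness limit, placed exactly by the genes named on either side of it). A pseudocount of 0.1 CPM was added before the ratios were taken, and the 100 genes with the highest mean were left out. The rule found 88 genes among the 27893 features of the table, or 0.502% of the 17535 genes with a mean of at least 2 CPM.

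All plants were wild-type Punica granatum of the strain labelled Hongmanao, raised from rooted cuttings for 90 days and then held in dry soil at 30% to 35% of field capacity. The labels give the plants an age of 180 days. During the drought they were sprayed daily with 5 mL of distilled water (0 µM, the control) or of ABA at 30, 60 or 90 µM, so that drought was common to every group and only the spray differed. Each dose was represented by 1 leaf library, and the labels do not say whether it held the RNA of 1 plant or of several. The spread within a dose is therefore unknown, and a difference between doses cannot be told apart from a difference between plants or libraries.

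ABA is the hormone that plants make when tissue dries. It binds receptors of the PYR/PYL/RCAR family, the hormone-bound receptors inhibit PP2C phosphatases, and the SnRK2 kinases thereby released phosphorylate ion channels of guard cells and bZIP transcription factors. In leaves the outcomes known from Arabidopsis include closure of stomata and transcription of genes for protective proteins, for ABA breakdown and for the pathway's own PP2C regulators. Which of the 88 genes belong to any of these roles is not stated here, because the gene table used for names pairs no identifier with a product. All 88 members matched a symbol in that table, and in each case the symbol was the LOC identifier. For the same reason the leaf label was not checked against leaf markers.

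Library totals were 22118468, 24052618, 28366719 and 26590290 counts in order of dose. The 60 µM library was thus the deepest, 1.28 times the shallowest. Every member was at least 2 times higher there after division by the total because the rule requires it. Between 22044 and 22257 features had a count in each library. The 10 most abundant features took 3.01% to 3.57% of a library, and features annotated as rRNA took 0.146% to 0.334%, with the 60 µM library at 0.243%. The part of depth or RNA composition in the members' values was not tested.

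Summed over members, the counts were 56033 (0 µM), 54959 (30 µM), 190712 (60 µM) and 60334 (90 µM). This was 0.672% of the 60 µM library (exact binomial 95% interval 0.669% to 0.675%). It was 0.253% of the control library (0.251% to 0.255%), 0.228% of the 30 µM library (0.227% to 0.230%) and 0.227% of the 90 µM library (0.225% to 0.229%). These intervals, and all intervals below, cover counting error only. The median member had 8.70 CPM in the control and 8.92, 28.3 and 8.42 CPM at the rising ABA doses. The median was therefore near level over 0, 30 and 90 µM with a single step up at 60 µM, as the rule requires of each member. The summed share was higher in the control than at 30 or 90 µM, and its interval did not overlap theirs.

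Of the 17535 genes with a mean of at least 2 CPM, 206 were at least 2 times higher at 60 µM than in every other library. Of these, 117 failed the levelness limit and 89 (43.2%) met it, while 72.5% of all 17535 genes met it. The 89 comprised the 88 members and LOC116203545, which was among the 100 most abundant genes and was left out for that reason. LOC116203545 had 17328, 22651, 60214 and 21983 counts at 0, 30, 60 and 90 µM. Among the 117 genes that were not level, the library closest to the 60 µM value was the 90 µM library for 55, the control for 41 and the 30 µM library for 21.

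**Figure D1:**
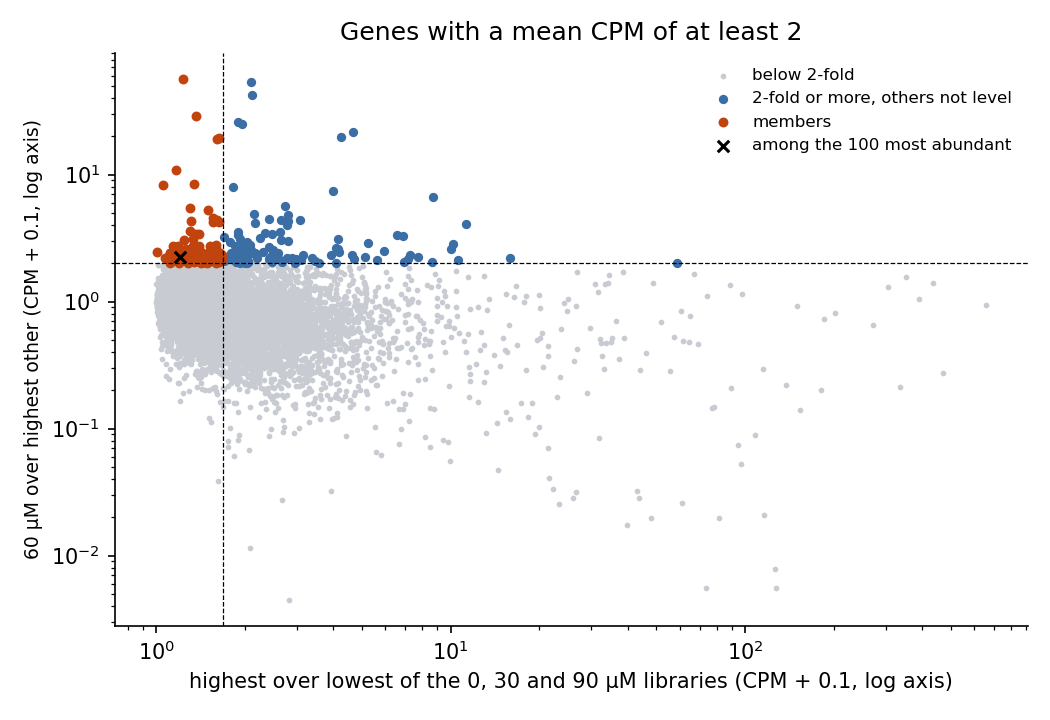
Each point is 1 of the 17535 genes with a mean of at least 2 CPM. The horizontal axis (log) gives the highest over the lowest of the 0, 30 and 90 µM values, the vertical axis (log) gives the 60 µM value over the highest of those 3, all as CPM + 0.1, and dashed lines mark the levelness limit and a ratio of 2. The 88 members fill the upper left corner, most of them close to the line at 2, and the 117 genes at least 2-fold higher but not level lie to their right.

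The steps were mostly small. The value at 60 µM over the highest other library, on the scale of CPM + 0.1, ran from 2.01 to 56.5 with a median of 2.33. It was between 2 and 2.5 for 57 members, between 2.5 and 3 for 11, between 3 and 5 for 11, between 5 and 10 for 4, and 10 or more for 5. Against each dose separately the median log2 ratio over members was 1.46 for 60 over 0 µM, 1.47 for 60 over 30 µM and 1.57 for 60 over 90 µM. Over all 17535 genes these medians were -0.03, 0.01 and 0.12. The rule fixed the direction of every member, so these medians are a description of the set and not a result about it.

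**Figure D2:**
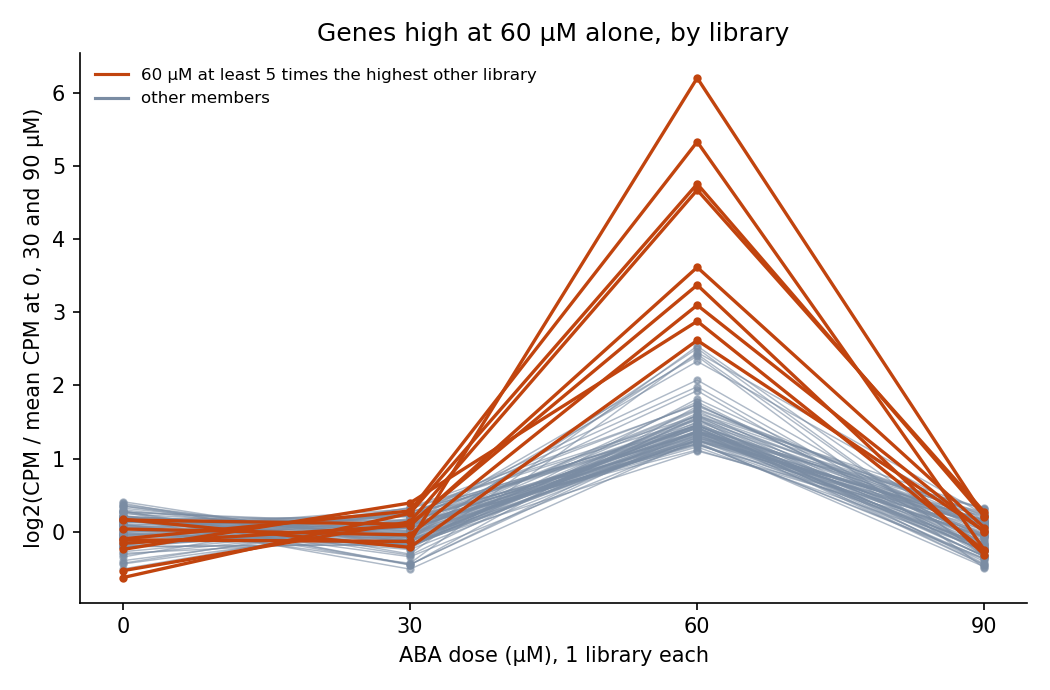
Each line is 1 of the 88 members, drawn over the 4 ABA doses (1 library each) as log2 of its CPM over its own mean CPM at 0, 30 and 90 µM. The 9 members in orange were at least 5 times higher at 60 µM than in the highest other library. All 88 lines peak at 60 µM, and most peaks lie far below those of the orange lines.

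LOC116195227 had the largest step. It had 14, 15, 1422 and 21 counts in order of dose, or 0.633, 0.624, 50.1 and 0.790 CPM. Nearly all of its reads were thus in the 60 µM library. Its ratio of CPM at 60 µM was 79.2 over the control (counting interval 47.1 to 145), 80.4 over 30 µM (48.6 to 144) and 63.5 over 90 µM (41.4 to 103). LOC116195225 showed the same shape with fewer reads, namely 7, 14, 373 and 15 counts and a ratio over the control of 41.6 (20.0 to 104). Its ratio was 22.6 over 30 µM and 23.3 over 90 µM.

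LOC116190267 had 12 control counts, then 17, 660 and 13 as the dose increased. The ratio was 42.9 over the control (24.4 to 83.4), and 32.9 and 47.6 over the other doses. LOC116189874 had 11, 19, 518 and 23 counts, and was 36.7 times the control at 60 µM (20.4 to 74.0). In both genes, as in LOC116195227 and LOC116195225, fewer than 25 counts were seen in each library other than the 60 µM one. The position of those 3 libraries relative to each other thus rests on few reads. LOC116215589 had 28, 36, 490 and 39 counts, a ratio of 13.7 over the control (9.32 to 20.8), 11.5 over 30 µM and 11.8 over 90 µM. These 5 genes are those with a step of 10 or more.

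LOC116195866 had 22 counts in the control and 23, 261 and 19 in the ABA libraries, again few outside the 60 µM one. LOC116204939 had 143, 147, 1526 and 167 counts, so that its 3 low libraries, at 6.47, 6.11 and 6.28 CPM, were nearly equal while the 60 µM library stood at 53.8 CPM. Its ratios were 8.32 over the control (7.01 to 9.95), 8.80 over 30 µM and 8.57 over 90 µM. LOC116189428 had 368, 307, 2569 and 396 counts (16.6, 12.8, 90.6 and 14.9 CPM). LOC116190007 had 16, 27, 178 and 19 counts, and LOC116198460 had 60, 45, 391 and 79.

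**Figure D3:**
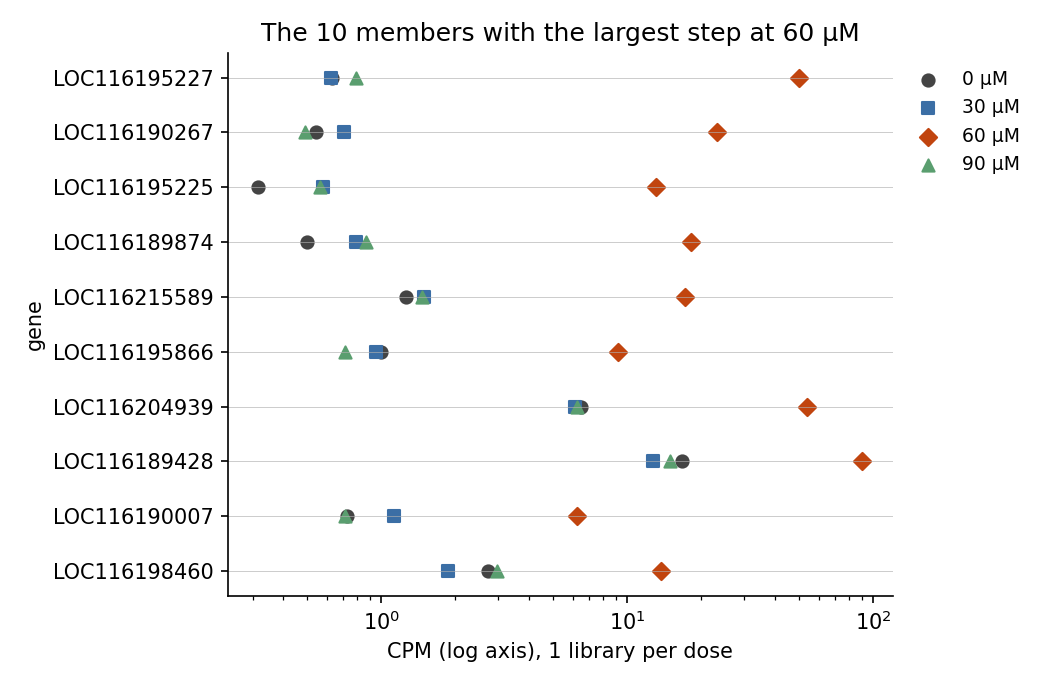
CPM (log axis) of the 10 members with the largest step, 1 row per gene and 1 symbol per library. In each row the 60 µM symbol stands apart to the right; for LOC116195227 it lies at 50.1 CPM, against 0.624 to 0.790 CPM in the other libraries.

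Steps between 3 and 5 were seen in 11 members. LOC116199845 had 643, 432, 3651 and 516 counts, a ratio of 4.43 over the control (4.07 to 4.82), 7.17 over 30 µM and 6.63 over 90 µM. Its control library was the highest of the 3 low ones. The control was also the highest of the 3 in LOC116192895, with 219, 180, 1206 and 168 counts. LOC116197826 instead had its next highest value at 30 µM, with 285, 386, 1641 and 326 counts. LOC116206441 had 604, 493, 2398 and 642 counts. By CPM its control was the highest of the 3, at 27.3 against 20.5 (30 µM) and 24.1 (90 µM). In the remaining members with steps between 3 and 5 the lowest count at 60 µM was 230, in LOC116192145, which had 41, 40 and 29 counts elsewhere.

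CPM is not corrected for gene length, so its order ranks reads and not transcripts. The 10 members with the highest mean CPM supplied 48.5% of all member counts at 60 µM. LOC116205024 had 5138, 4640, 15487 and 4961 counts in dose order (232, 193, 546 and 187 CPM). Its ratio at 60 µM was 2.35 over the control, 2.83 over 30 µM and 2.93 over 90 µM. LOC116193082 had 3039, 2792, 10745 and 3904 counts, and LOC116194897 had 2844, 2920, 10231 and 3788. In both of these the 90 µM library came second, at 147 and 142 CPM. LOC116187009 and LOC116203978 had their lowest value at 90 µM instead, with 3044, 3606, 9637 and 2473 counts in the first and 2894, 2770, 10239 and 2601 in the second.

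LOC116194601 had the largest step of these 10, with 1475, 1551, 6434 and 1264 counts and a ratio of 3.40 over the control, 3.52 over 30 µM and 4.77 over 90 µM. LOC116192637 had 2012, 2199, 6937 and 2691 counts. LOC116195387 had 1836, 1576, 5288 and 2021. LOC116194385, with 2353, 2310, 7357 and 3199 counts, and LOC116192377, with 3907, 3553, 10127 and 4605, were close to the limit, at 2.16 and 2.02 times their highest other library. Both fell under 2 when libraries were scaled by edgeR's TMM factors, to 1.996 and 1.91.

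The members were also divided by their mean CPM. From 2 to 5 CPM, 15 of 1947 genes were members (0.770%). From 5 to 20 CPM there were 36 of 5388 (0.668%), from 20 to 100 CPM 27 of 7850 (0.344%), and above 100 CPM 10 of 2250 (0.444%) once the 100 most abundant genes were set aside. The median step was 2.70, 2.26, 2.40 and 2.38 in these 4 classes, and the largest step was 19.4, 56.5, 5.42 and 3.40. For 16 members the mean over the 0, 30 and 90 µM libraries was under 2 CPM. Those 16 passed the limit on the mean only through the 60 µM library, so they had to be high there. The mean that sets the classes includes the 60 µM value, so nothing is read from the shares or the median steps of the classes. Among them were 7 of the 9 members with a step of 5 or more, so the low means of those genes say nothing about where large steps occur.

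Counting error alone could be judged for each ratio. A gene was called higher when the 95% exact conditional interval of its ratio of CPM lay wholly above 2, a size criterion with no test behind it, since there is 1 library per dose. Against the control 63 members were called, where 3.45% of 19286 genes with at least 1 CPM in a library were called. Against 30 µM 71 members were called, with a background of 4.32%, and against 90 µM 73, with a background of 4.98%. Against each of the 3 libraries 52 members were called, with a background of 0.824%, or 159 genes. The rule of membership used the same values, so nothing is read from the excess over these backgrounds.

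For 36 members at least 1 of the 3 intervals reached down to 2 or below, and none of these had a step above 2.73. All 20 members with a step of 3 or more were called against each library. The lowest bound of any interval was 1.45, for LOC116194663 with 36, 38, 99 and 36 counts, so the intervals of all 88 members against every other library lay above 1. The rule asks for a step of at least 2, and no member had under 99 counts at 60 µM. Bounds above 1 were thus largely fixed in advance. Of the 159 genes called against each library, 107 were not members. In 93 of these the other 3 libraries were not level, in 13 the mean was too low, and the last was LOC116203545.

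**Figure D4:**
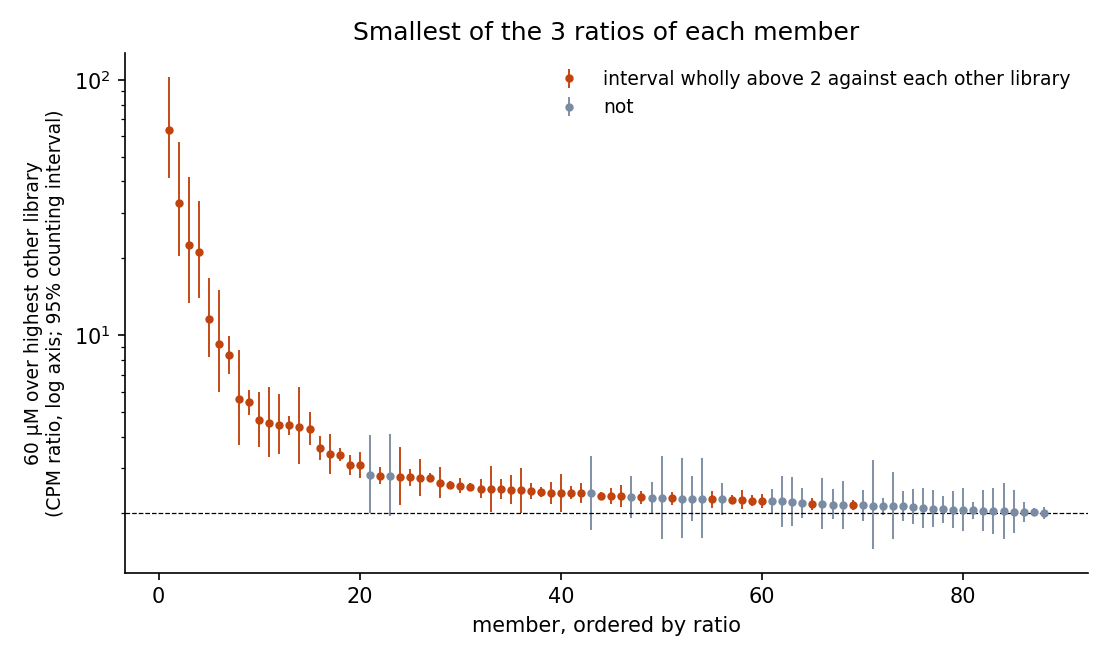
The smallest of the 3 ratios of each member, that is, its CPM at 60 µM over its highest other library (log axis), with the exact 95% counting interval as a bar, members ordered by ratio. The 52 members in orange had intervals wholly above 2 (dashed line) against each of the 3 libraries. The 36 in grey-blue did not, and lie at the low end.

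The 3 remaining libraries were compared within the members. The highest over the lowest of them ranged from 1.01 to 1.68 with a median of 1.35, under the levelness limit of the rule. LOC116187298 was the most level member, with 5.65, 5.61 and 5.60 CPM in the 0, 30 and 90 µM libraries against 14.1 CPM in the 60 µM one. In 24 members all 3 pairwise counting intervals among 0, 30 and 90 µM held 1, 27.3% of members, against 17.8% of all genes that were level by the same limit. These 24 had a median mean of 3.87 CPM, and the other 64 a median of 31.1 CPM. The intervals of the first group were thus wider and held 1 more easily, without their values being more level. Nothing is read from the difference between 27.3% and 17.8%.

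Within the level range, the control was the highest of the 3 in 40 members (45.5%), the 30 µM library in 23 (26.1%) and the 90 µM library in 25 (28.4%). Among all level genes with a mean of at least 2 CPM the shares were 40.9%, 35.8% and 23.3%. The 90 µM library was the lowest in 40 members (45.5%, against 49.3% of level genes). The median log2 ratio of 90 over 0 µM was -0.12 over members and -0.11 over level genes, and that of 30 over 0 µM was -0.05 and -0.03. That of 90 over 30 µM was -0.03 over members and -0.07 over level genes. Apart from the step at 60 µM, the members were thus near level genes in these medians. The levelness limit bounds these ratios in both groups, so some closeness was fixed in advance.

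Values next to the limits show how fine the choice was. LOC116192995, with 54, 60, 202 and 93 counts, was the member with the smallest step, 2.01, and LOC116192077, with 1246, 924, 3198 and 1464, missed the limit at 1.999. LOC116200996 and LOC116194453 lay just inside, at 2.01 and 2.02. LOC116209302 and LOC116203055 lay just outside, at 1.997 and 1.98. On the levelness of the other libraries, LOC116212632 was just inside at 1.68 with 722, 962, 2649 and 632 counts, and so were LOC116213005 at 1.68 and LOC116187653 at 1.66. LOC116213691, LOC116200076 and LOC116196757 were just outside at 1.695, 1.697 and 1.70.

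On the mean, LOC116194663 at 2.01 CPM, LOC116213720 at 2.06 CPM and LOC116207118 at 2.20 CPM were the lowest members. LOC116207195 was the first to miss it, at 1.85 CPM, although its step, with 16, 14, 158 and 14 counts, was 6.89. LOC116211141 and LOC116206627 followed at 1.83 and 1.73 CPM. LOC116205024, at 289 CPM, was the most abundant member, and LOC116203545, at 1169 CPM, was the one gene lost to the list of the 100 most abundant.

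The levelness limit also kept out some genes with very few counts outside the 60 µM library. With on taken as 100 counts or more and off as 10 or fewer, limits chosen with the data known, 7 genes were on at 60 µM alone, and 0 of them were members. All 7 failed the levelness limit, where the difference between a few reads decides, and 4 of them also had a mean under 2 CPM. LOC116214651 had 2, 4, 601 and 8 counts, and LOC116211447 had 7, 3, 572 and 10. By the size of the step, 53.1 and 42.6, these genes would stand beside LOC116195227 and LOC116190267.

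By annotated class, 87 members were protein-coding and 1 was a lncRNA gene. LncRNA genes made up 1.14% of members and 2.34% of the genes with a mean of at least 2 CPM. The lncRNA member, LOC116198564, had 36 control counts and 44, 118 and 33 in the ABA libraries. Its ratio was 2.56 over the control (1.75 to 3.82), 2.27 over 30 µM and 3.35 over 90 µM. The classes of rRNA, snoRNA and snRNA had 0 members, with 9, 4 and 2 genes in the pool.

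Position in the genome was not used by the rule. Of the members, 84 were placed on a chromosome of the reference assembly. A single pair of members were next neighbours, LOC116187009 and LOC116187298, with 9637 and 399 counts at 60 µM. The genes on either side of that pair did not share the step, since LOC116188360 had 3167, 4381, 2995 and 2761 counts and LOC116215834 had 401, 473, 468 and 310.

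When 1 gene was allowed between members, LOC116195225 and LOC116195227 joined them, which are among the 3 members with the largest steps. Counts at this distance in the other single-library sets are given further below. The gene between them, LOC116195226, was low at both 30 and 60 µM, with 87, 4, 2 and 70 counts at 0, 30, 60 and 90 µM. On the outer side LOC116195224 had 27, 0, 25 and 0 counts, and LOC116197270 had 0 in each library, where 3 counts would be 0.106 to 0.136 CPM. None of these neighbouring genes thus shared the step at 60 µM. LOC116195224 rests on few reads, and LOC116197270, without a count, shows no pattern. Whether reads shared between similar copies shaped these values was not tested.

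Around the members as a whole, 120 neighbouring protein-coding genes had a mean of at least 2 CPM and were not members themselves. Of these, 43 (35.8%) had their highest value at 60 µM, against 29.0% of the 17535 genes. Their median ratio of 60 µM to the highest other library was 0.948, against 0.890 over all. A step of 2 or more was seen in 2 of them (1.67%, against 1.17%), LOC116194707 and LOC116203981. The other 118 had smaller steps or none.

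Annotated spans of 6 members overlapped another gene, namely LOC116204939, LOC116215149, LOC116215465, LOC116211243, LOC116215576 and LOC116215226. No source used here gives the strand setting of the counting, so how reads in the shared stretches were assigned is not known. How far the spans overlap, and whether exons do, was not examined. LOC116204939, with its step of 8.21, is the one among the 10 largest. How reads that match near-identical copies of a gene were counted is not known either, and no search for such copies was made.

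The same rule was applied to each library in turn to see how the 60 µM library compared. It found 49 genes high in the control alone, 31 in the 30 µM library alone and 38 in the 90 µM library alone, against 88 for 60 µM. In the opposite direction 45, 48, 105 and 248 genes were low in 1 library alone, in order of dose. The 60 µM library therefore had the most genes high alone, and also more low than high ones. Scaled by TMM factors, the genes high alone numbered 38, 25, 85 and 58 at 0, 30, 60 and 90 µM, and with DESeq2's size factors 37, 26, 83 and 61. The 60 µM library came first under each of these scalings. Differences between these counts have no replicate check.

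**Figure D5:**
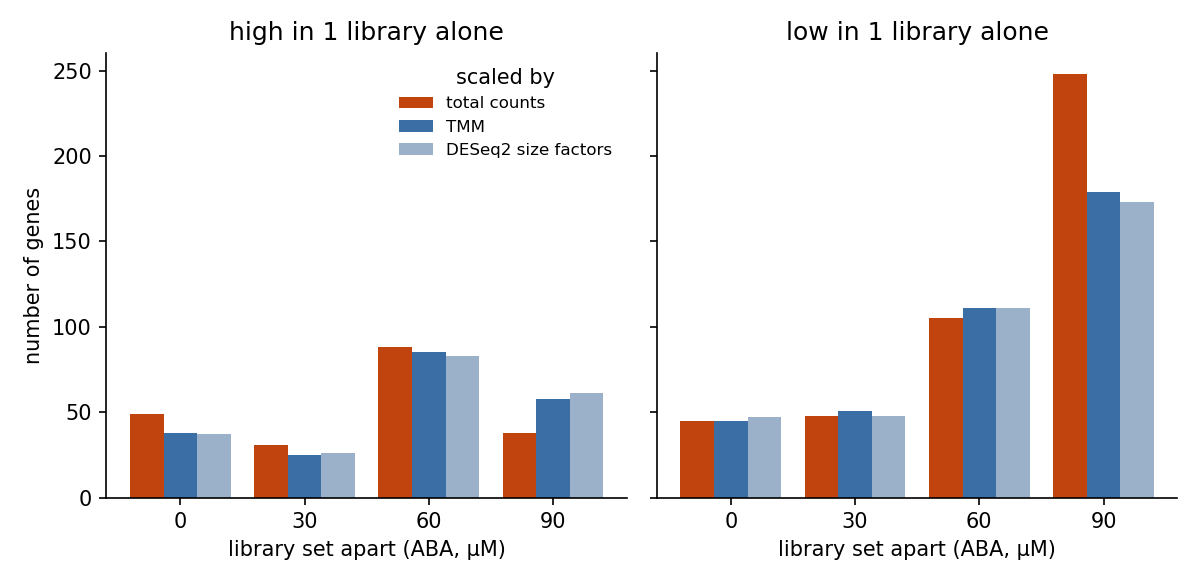
Number of genes that the rule sets apart in 1 library alone, high (left) or low (right), for each ABA dose and for 3 ways of scaling the libraries. By total counts, 88 genes were high at 60 µM alone, against 31 to 49 in the other libraries, and 105 were low there; the counts at 90 µM move most with the scaling.

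Next-neighbour pairs were counted in those sets too. There was 1 pair among the 49 genes high at 0 µM alone, 0 pairs among those high at 30 or at 90 µM alone, 0 among the 45 genes low at 0 µM alone, 1 among the 48 low at 30 µM alone, 3 pairs among the 105 genes low at 60 µM alone and 2 among the 248 low at 90 µM alone. The 88 members held 1 pair. With 1 gene allowed between, 4 of the 88 members had another member nearby. In the sets high at 0, 30 and 90 µM alone the numbers were 2 of 49, 0 of 31 and 0 of 38. In those low at 0, 30, 60 and 90 µM alone they were 0 of 45, 2 of 48, 8 of 105 and 15 of 248.

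Scaling touched the 90 µM library most, with a TMM factor of 0.939 against 1.01 at 60 µM, which shifts the log2 ratio of 60 over 90 µM of every gene by -0.11. Under both TMM and DESeq2 scaling 74 of the 88 members met the rule again. Of the 14 lost under either, 10 had 90 µM as their highest other library. The 14 include LOC116195225 and LOC116189874, whose steps stayed at 18.7 and 17.7 under TMM but whose highest other library, at 1.73 and 1.76 times the lowest, exceeded the levelness limit. Of the 10 largest steps, the other 8 were met again under both scalings.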

How the data were processed

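Leaf RNA of 4 plant groups, 1 library per ABA dose, had been sequenced with a NEBNext Ultra kit, per the labels' protocols. The values deposited by the authors are raw read counts per gene, not normalized. Per the submitters' processing notes reads were handled with FastQC, the aligner HISAT2 and the read counter featureCounts. No source used here gives their versions, the build, the strand setting or the handling of multi-mapping reads, so no coordinates are printed. Columns belonging to other samples numbered 0. Names, classes and gene order came from the RefSeq gene table of assembly ASM765513v2. Planned descriptions of protein signatures and promoter motifs were not made; such sequences were not used here.

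CPM used library totals (22118468 to 28366719 counts, so that 3 counts are 0.106 to 0.136 CPM). Ratios carry exact conditional binomial (Clopper-Pearson) 95% intervals, which cover counting error only; reads without molecular identifiers are not independent molecules. The background counts used genes with at least 1 CPM in 1 library. Python 3.11.15, scipy 1.17.1, edgeR 4.0.16 (TMM factors) and DESeq2 1.42.0 (size factors) were used, and the code was tested on simulated data. No test of differential expression was run, because the rule used all 4 values of each gene and each dose has 1 library.

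The members, lists and alternatives were chosen with earlier results of these data known. Genes were named by rank of step (10) or of mean CPM (10), as the 3 on either side of each limit, or as neighbouring members; the others named (members with steps between 3 and 5, the lncRNA and overlapping genes, genes flanking members and the on/off genes) were chosen after their values were seen.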

Additional observations from a re-analysis of the deposited data

How the results depend on the processing

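The number of genes high at 60 µM alone, 88, was 85 with TMM scaling (76 shared), 83 with DESeq2 size factors (74 shared), 89 with a pseudocount of 1 CPM (70 shared) and 116 with a levelness limit of 2. It was 217 with no limit on the mean, 52 with a mean of at least 10 CPM, 20 with a threshold of 3-fold and 33 with a levelness limit of 1.3. Without the 0, 30 or 90 µM library it ran from 189 to 358, where by construction fewer libraries had to be level and fewer had to be exceeded 2-fold. With the 100 most abundant genes kept in, an alternative chosen after seeing the data, it was 89. Members called against each library numbered 52, or 50 with either other scaling, 87 for a bound of 1.5 and 17 for a bound of 3. All genes so called numbered 159, and 99 when 1 CPM was required in all 4 libraries. That filter removes every gene with under 1 CPM in any library. The median log2 ratio over members was 1.49 for 60 over 0 µM with TMM and with DESeq2 and 1.29 with a pseudocount of 1 CPM. For 60 over 30 µM it was 1.46 with DESeq2 and 1.42 with that pseudocount. For 60 over 90 µM it was 1.46, 1.45 and 1.43 with TMM, DESeq2 and that pseudocount. Members with a neighbouring member numbered 2, and 4 within 2 genes. The alternatives on protein identity were not run. No paired analysis was possible because each dose has 1 library. Depth limits the members near 2 CPM: at about 36 counts in a library, as in LOC116194663, the interval of a 2.14-fold ratio runs from 1.45 to 3.23.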
